A study of Mus musculus with 25 samples.

Results

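Rgs6, Strbp, Dnajc21, Ccng1, Nrep and Olfml2b are 6 of the 21720 genes counted in brain cortex RNA of 25 mice, and all 6 passed the filter on low counts that kept 16515 genes. They were picked for a fall in counts with a combination of (-)-vestitol and salviolone, together with a small spread between mice. The rule of choice did not name the group compared, and the fall is read here as one against vehicle-treated amyloid model mice. Values of the combination against the model control therefore describe how the genes were chosen, and no test of that difference is given for them.

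The mice were male, aged 6 months, and had received an intraperitoneal injection each day for 3 months, with 5 mice in each of 5 groups and 1 library per mouse. Of these groups, 4 were transgenic mice of strain B6C3 with the genotype APPswe, PSEN1dE9, in which a human-mouse amyloid precursor protein with the Swedish mutation is driven by the mouse prion protein promoter. They received the combination (2.5 mg/kg of each compound), (-)-vestitol (5 mg/kg), salviolone (5 mg/kg) or vehicle (the model control). Wild type C57BL/6J mice received vehicle, so strain and transgene differ together between wild type and every other group, and the combination held a lower dose of each compound than the single treatments. Both compounds are plant products, vestitol an isoflavan and salviolone a diterpenoid. The sequenced mice were drawn at random from larger treatment groups, and a donepezil group was not analysed here.

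The 6 genes belong to unrelated families. Rgs6 encodes a regulator of G protein signalling of the R7 class, which binds the G protein subunit Gnb5 and shortens signalling through inhibitory G proteins, and with it the opening of GIRK potassium channels in neurons and heart. Strbp encodes an RNA-binding protein of spermatids and brain that binds RNA duplexes. Dnajc21 encodes a J-domain cochaperone that acts late in maturation of the large ribosomal subunit, a role known from its yeast counterpart and from human patients. Ccng1 encodes cyclin G, a p53 target that recruits regulatory B' subunits of protein phosphatase 2A. Nrep encodes a small intracellular protein of regenerating neurons and of wounds, also known as P311, that raises translation of TGF-beta. Olfml2b encodes a secreted protein with an olfactomedin domain that binds chondroitin sulfate and heparin.

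Promoter sequences were taken from RefSeq's table for GRCm38.p6, each from 250 bases before to 50 after an annotated transcript start, and they are shown because the 6 genes varied together across mice and one of them is a known p53 target. A promoter was matched for Rgs6, Strbp (a pair of starts), Dnajc21, Ccng1 and Olfml2b, which gave 6 windows, and all lie in the orientation of the gene. Capitals mark the p53 motif of Ccng1, the E-box (CACGTG) of Strbp and the first GC box (GGGCGG on the other strand) of Dnajc21.
Ccng1, chr11:40755237-40755536, minus strand: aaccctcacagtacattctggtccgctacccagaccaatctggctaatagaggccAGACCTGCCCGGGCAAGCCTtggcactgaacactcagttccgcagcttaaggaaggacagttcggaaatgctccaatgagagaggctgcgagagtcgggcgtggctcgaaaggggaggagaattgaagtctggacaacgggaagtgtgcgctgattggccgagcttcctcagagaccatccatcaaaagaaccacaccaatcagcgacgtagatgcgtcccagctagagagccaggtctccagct
Strbp, chr2:37703296-37703595, minus strand: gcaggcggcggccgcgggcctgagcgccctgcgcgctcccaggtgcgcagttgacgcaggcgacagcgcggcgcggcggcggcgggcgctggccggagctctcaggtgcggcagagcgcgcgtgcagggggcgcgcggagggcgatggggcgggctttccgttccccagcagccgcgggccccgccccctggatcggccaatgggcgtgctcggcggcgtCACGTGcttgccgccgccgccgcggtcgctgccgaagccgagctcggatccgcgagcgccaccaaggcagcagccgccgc
Dnajc21, chr15:10470467-10470766, minus strand: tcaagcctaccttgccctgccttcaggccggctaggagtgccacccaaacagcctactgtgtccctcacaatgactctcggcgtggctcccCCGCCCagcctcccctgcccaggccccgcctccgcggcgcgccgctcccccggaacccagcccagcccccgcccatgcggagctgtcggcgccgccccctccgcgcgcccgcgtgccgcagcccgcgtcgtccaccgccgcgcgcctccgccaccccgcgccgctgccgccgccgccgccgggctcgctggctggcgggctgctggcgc

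The Ccng1 window held a match to the p53 response element, a decamer repeated in tandem, with 1 mismatch at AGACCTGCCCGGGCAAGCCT, from 195 to 176 bases before the start. Such a match lay in 10 of 16357 promoter windows (0.0611%). These windows, the basis of every share of windows given here, are those of genes that passed the filter on low counts. A single decamer without mismatch lay in 7.17% of windows, and Ccng1 alone among the 6 windows held one. The GC box was found in 57.1% of all windows on either strand and in those of Dnajc21, Olfml2b and Strbp. CCAAT lay in 37.2% of all windows and in those of Ccng1 and Strbp, the letters CACGTG in 9.11% of all windows and in that of Strbp, and TGACG in 27.7% of all windows and in those of Olfml2b and Strbp. No motif searched was found in the Rgs6 window, and neither the TATA box letters TATAAA nor the ETS letters CCGGAAG lay in any of the 6 (8.28% and 14.2% of all windows). The windows of Strbp and Dnajc21 printed above contained 79.7% and 78.7% G and C, against 69% for Olfml2b, 58.7% for Rgs6, 55.7% for Ccng1 and a median of 59.7% over all windows. A match describes letters and not binding.

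Total counts were 59376320 to 109776852 per library, and the deepest 3 libraries were of the combination. Counts of the 6 genes were never below 390 in a library. App reached 3439 to 5066 CPM (counts scaled to the TMM-normalised library size) in the 20 transgenic mice and 1383 to 1800 CPM in wild type, so every library matched its genotype label. Excitatory cortex neuron markers summed to 3324 to 4186 CPM with the combination, 4264 to 5137 with vestitol, 4336 to 4844 with salviolone, 4049 to 5297 in the model control and 4218 to 4877 in wild type. Markers of the hypothalamus and basal forebrain, brain regions outside the cortex, summed to 412.6 to 686.6 CPM with the combination, 79.4 to 135.1 with vestitol, 82.9 to 98 with salviolone, 81.1 to 266.6 in the model control and 107.1 to 612.5 in wild type. A pair of libraries stood apart from their groups. Wild type mouse 2 had 107.1 CPM of these markers, while the other wild type mice had 393.9 to 612.5, and it lay at 7.88 on the first principal component, against -29.2 to -18.7 for them. Model control mouse 1 had 266.6 CPM, while the other model control mice had 81.1 to 115.7, and it lay at -4.06 on that component, against 7.43 to 17.9.

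All 6 genes were lowest on average with the combination, and wild type was next lowest for each. With the combination they were 34.4% (Strbp) to 53.3% (Dnajc21) below the model control, and for none of them did the combination mice overlap the model control mice. A range free of overlap on the lower side was found for 5.59% of all genes in that comparison, and an adjusted p under 0.05 (edgeR, Benjamini-Hochberg) with a lower level for 7.13%. Both shares are stated for scale, since the genes were chosen on this difference. The median log2 fold change of the 6 was -0.79, against 0.00 over all 16515 genes. Ranked by the p-value among 8161 genes with lower estimates, Rgs6, Strbp, Dnajc21 and Ccng1 took ranks 3 to 6, Olfml2b rank 38 and Nrep rank 83. Just outside the set lay Vip and Rock2 at ranks 1 and 2, with log2 fold changes of -0.83 ± 0.10 and -0.49 ± 0.06 (SE), and Mical2 at rank 7 with -0.83 ± 0.11. In bulk tissue, fewer cells of a type and less RNA per cell cannot be told apart.

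**Figure D1:**
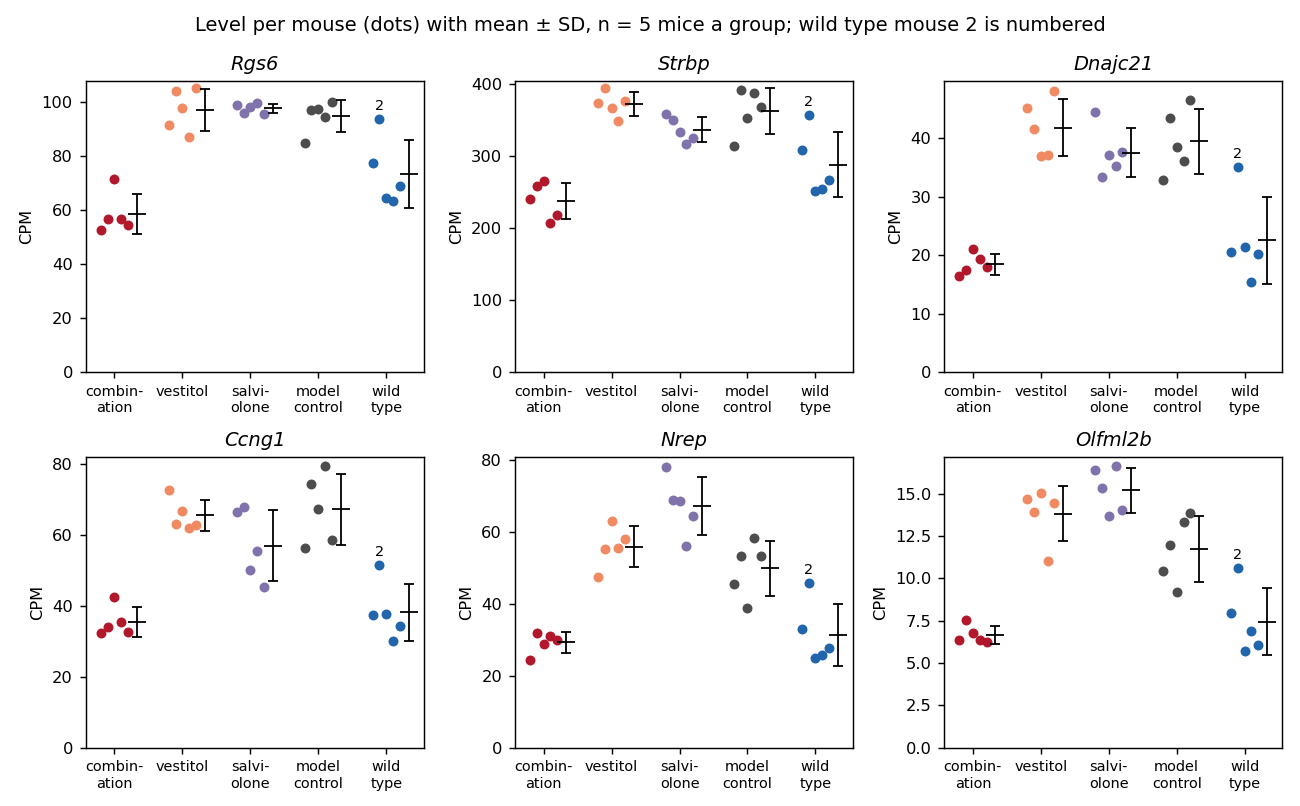
CPM of each gene in each mouse (dots) with mean and SD (bars) for the combination, vestitol, salviolone, model control and wild type, 5 mice each. The combination dots lie below all dots of vestitol, salviolone and model control in the 6 panels, and wild type mouse 2 is the highest wild type dot in each.

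Rgs6 lies at chr12:82635066-83208830 (mm39). With the combination it stood at 52.7, 56.9, 71.4, 56.7 and 54.7 CPM in mice 1 to 5. Vestitol mice had 91.6, 104, 97.7, 87.1 and 105 CPM and salviolone mice 98.9, 96.2, 98.3, 99.8 and 95.5 CPM. The vehicle-treated groups had 84.8, 97.3, 97.6, 94.7 and 99.97 CPM in the model control and 77.4, 93.7, 64.4, 63.3 and 68.8 CPM in wild type. The highest combination mouse, mouse 3, was below every mouse on a single compound and every model control mouse, but above 3 of the wild type mice. Group means were 58.5 ± 7.43 CPM with the combination, 97.1 ± 7.83 with vestitol, 97.7 ± 1.80 with salviolone, 94.9 ± 5.93 in the model control and 73.5 ± 12.5 in wild type (SD, n = 5 each). The log2 fold change was -0.70 ± 0.09 (SE) for the combination against the model control and -0.33 ± 0.09 against wild type.

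Strbp (chr2:37459880-37593871, mm39) was the most abundant of the set per length of transcript. The combination mice had 241, 259, 265, 208 and 218 CPM. Mice on vestitol had 373, 395, 366, 349 and 376 CPM, and those on salviolone 358, 350.4, 334, 316 and 325 CPM. The model control had 314, 392, 353, 388 and 368 CPM and wild type 308, 358, 252, 254 and 267 CPM. All combination mice were below the lowest model control mouse, mouse 1, and salviolone and model control mice overlapped. Means were 238 ± 24.97 CPM with the combination, 363 ± 31.6 in the model control and 288 ± 45.0 in wild type (SD, n = 5 each). Strbp had the smallest fold of the 6 against the model control, a log2 fold change of -0.61 ± 0.08 (SE).

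Dnajc21 (chr15:10446842-10470602, mm39) had the largest fold of the 6. Combination mice had 16.4, 17.5, 21.1, 19.3 and 17.9 CPM. The single compounds gave 45.1, 41.6, 37.0, 37.2 and 48.1 CPM with vestitol and 44.5, 33.4, 37.1, 35.2 and 37.5 CPM with salviolone. Vehicle gave 32.8, 43.4, 38.6, 36.0 and 46.5 CPM in the model control and 20.6, 35.1, 21.3, 15.4 and 20.2 CPM in wild type. Apart from wild type mouse 2, wild type mice were in or near the range of the combination, and the lowest mouse of the other transgenic groups, model control mouse 1, had 32.8 CPM. The log2 fold change of Dnajc21 was -1.10 ± 0.15 (SE) for the combination against the model control, with means of 18.4 ± 1.81 and 39.5 ± 5.52 CPM (SD, n = 5 each).

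Ccng1 (chr11:40639379-40646138, mm39) had 32.4, 34.0, 42.6, 35.4 and 32.6 CPM in combination mice. Vestitol mice had 72.8, 63.1, 66.7, 62.1 and 62.9 CPM and salviolone mice 66.4, 67.9, 50.2, 55.4 and 45.4 CPM. The model control had 56.2, 74.4, 67.3, 79.6 and 58.6 CPM and wild type 37.3, 51.7, 37.7, 30.2 and 34.2 CPM. Salviolone mice were spread most widely among the transgenic groups, with a coefficient of variation of 17.3%, and their lowest mouse, at 45.4 CPM, came next above the highest combination mouse, at 42.6 CPM. Ccng1 was the only member for which all model control mice lay above all wild type mice. Its means were 35.4 ± 4.20 CPM with the combination, 67.2 ± 10.0 in the model control and 38.2 ± 8.09 in wild type (SD, n = 5 each), and the log2 fold change against the model control was -0.92 ± 0.13 (SE).

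Nrep (chr18:33570072-33597082, mm39) had 24.4, 32.0, 28.9, 31.1 and 29.9 CPM in combination mice. With vestitol it had 47.3, 55.3, 63.0, 55.6 and 58.0 CPM, and with salviolone 78.1, 68.8, 68.6, 56.1 and 64.2 CPM. It had 45.6, 53.2, 38.7, 58.3 and 53.3 CPM in the model control and 32.9, 45.7, 25.03, 25.8 and 27.6 CPM in wild type. Salviolone mice were the highest group for Nrep and overlapped the model control in a single mouse at 56.1 CPM. Nrep averaged 29.3 ± 2.97 CPM with the combination, 67.2 ± 7.97 with salviolone and 49.8 ± 7.67 in the model control (SD, n = 5 each). The log2 fold change was -0.77 ± 0.14 (SE) against the model control and -1.20 ± 0.14 against salviolone.

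Olfml2b (chr1:170472101-170510358, mm39) was the least abundant. It stood at 6.37, 7.51, 6.77, 6.38 and 6.25 CPM with the combination. It had 14.7, 13.9, 15.02, 11.0 and 14.4 CPM with vestitol and 16.4, 15.3, 13.7, 16.6 and 14.0 CPM with salviolone. It had 10.4, 12.0, 9.18, 13.3 and 13.8 CPM in the model control and 7.95, 10.6, 5.69, 6.90 and 6.08 CPM in wild type. Model control mouse 3, at 9.18 CPM, was below wild type mouse 2 at 10.6 CPM, and both were above all combination mice. Means were 6.66 ± 0.52 CPM with the combination, 15.2 ± 1.35 with salviolone, 11.8 ± 1.95 in the model control and 7.45 ± 1.97 in wild type (SD, n = 5 each), and the log2 fold change against the model control was -0.82 ± 0.14 (SE).

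Per length of transcript, in deposited FPKM, the order of the 6 in the combination mice was Strbp at 37.4 ± 3.69, Rgs6 at 14.6 ± 1.82, Dnajc21 at 14.4 ± 1.42, Ccng1 at 7.99 ± 0.94, Nrep at 7.58 ± 0.75 and Olfml2b at 2.26 ± 0.16 (SD, n = 5). Rgs6 and Dnajc21 did not differ beyond their spread there, nor did Ccng1 and Nrep. In the model control the levels were 56.2 ± 4.72 for Strbp, 30.3 ± 3.99 for Dnajc21, 23.3 ± 1.21 for Rgs6, 14.96 ± 2.24 for Ccng1, 12.7 ± 2.00 for Nrep and 3.95 ± 0.65 for Olfml2b, so that Dnajc21 ranked above Rgs6. Coefficients of variation were 7.77% to 12.7% with the combination and 15.6% to 32.8% in wild type, the widest group for each gene. A small spread was part of the choice of genes. For Rgs6 the combination had 12.7%, against 8.06% with vestitol, 1.84% with salviolone and 6.25% in the model control. For Strbp it had 10.5%, against 4.49%, 5.13% and 8.71% in the same order. The combination was the narrowest group for Dnajc21, Nrep and Olfml2b, and for Ccng1 vestitol was narrower. Without wild type mouse 2 the coefficients of variation were 9.32% (Rgs6) to 15% (Olfml2b) in wild type. Those of Rgs6, Strbp and Ccng1 were then below the combination's. Between groups that neighbour each other in the order of means, the ranges of the mice overlapped for every one of the 6 genes.

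The combination was set against each compound given alone at 5 mg/kg, so that dose and mixture differ together. Against vestitol the log2 fold changes of the 6 ran from -1.18 ± 0.15 (Dnajc21) to -0.64 ± 0.08 (Strbp), and against salviolone from -1.20 ± 0.14 (Nrep) to -0.50 ± 0.08 (Strbp), each with its SE. No combination mouse overlapped either single compound for any of the 6 genes. The share of all genes with every combination mouse lower was 8.68% against vestitol and 7.27% against salviolone. These comparisons use the same combination mice that chose the genes, so they carry no test. Olfml2b, at -1.05 ± 0.14 against vestitol and -1.19 ± 0.14 against salviolone, was further from the single compounds than from the model control. So by estimate were Nrep (-0.93 and -1.20) and Rgs6 (-0.73 and -0.74, within the SE of its estimate against the model control). Ccng1, at -0.69 ± 0.13, was nearer to salviolone than to the model control, as by estimate were Strbp (-0.50) and Dnajc21 (-1.03, within the SE).

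Against the model control, the single compounds left the 6 genes at log2 fold changes of -0.04 to 0.23 with vestitol and -0.24 to 0.43 with salviolone, and in all 12 cases the mice overlapped. Nrep and Olfml2b were the members with the highest estimates, 0.43 ± 0.14 and 0.37 ± 0.14 (SE) with salviolone and 0.17 ± 0.14 and 0.23 ± 0.14 with vestitol. Ccng1 had the lowest estimate with salviolone, -0.24 ± 0.13. The model control mice took part in choosing the genes, so no test is attached. In the model control against wild type the 6 estimates ran from 0.33 ± 0.08 (Strbp) to 0.81 ± 0.13 (Ccng1), with a median of 0.66 and an all-gene median of -0.01. Ccng1 alone had no overlap there, against 2.43% of all genes with every model control mouse higher. Without wild type mouse 2 these estimates ran from 0.43 ± 0.07 (Strbp) to 1.03 ± 0.11 (Dnajc21).

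The combination mice and the wild type mice overlapped for all 6 genes. Log2 fold changes of the combination against wild type were -0.33 ± 0.09 for Rgs6, -0.27 ± 0.08 for Strbp, -0.29 ± 0.15 for Dnajc21, -0.11 ± 0.13 for Ccng1, -0.10 ± 0.14 for Nrep and -0.16 ± 0.14 for Olfml2b (SE, n = 5 each). Rgs6, Dnajc21 and Strbp had the lowest estimates, and Dnajc21 was the least certain of these. Leaving out wild type mouse 2 gave -0.23 ± 0.08 for Rgs6, -0.18 ± 0.07 for Strbp and -0.07 ± 0.11 for Dnajc21. It gave 0.02 ± 0.12 for Ccng1, 0.08 ± 0.11 for Nrep and 0.00 ± 0.12 for Olfml2b, where the estimates no longer lay below wild type.

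**Figure D2:**
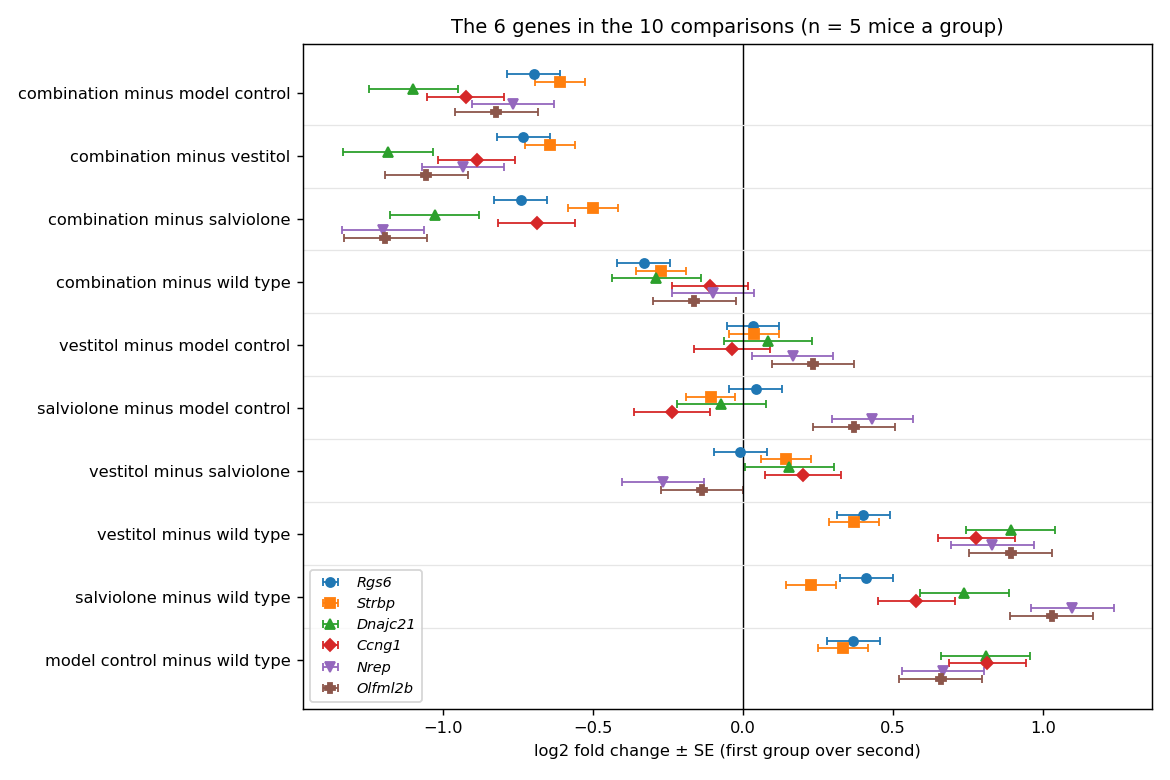
Log2 fold change (x axis, first group over second) with SE for the 6 genes in the 10 comparisons of the 5 groups, 5 mice each. Estimates lie between -1.20 and -0.50 for the combination against every other transgenic group, and between 0.23 and 1.10 for those groups against wild type.

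The single compounds against wild type, and against each other, set neither the combination nor the model control in the contrast, and these were tested with edgeR's quasi-likelihood test, two-sided, with Benjamini-Hochberg adjustment over 16515 genes. The spread was estimated over all 25 mice, those that chose the genes included, so the p-values are not free of that choice. Since the rule of choice named no group compared, vestitol, salviolone or wild type mice may also have entered it. All 6 genes were higher with vestitol than in wild type, against 6.95% of all genes. On the log2 scale the largest differences were those of Dnajc21, 0.89 ± 0.15 (SE, adjusted p = 0.000343), and Olfml2b, 0.89 ± 0.14 (adjusted p = 0.000186). Nrep stood at 0.83 ± 0.14, Ccng1 at 0.78 ± 0.13, Rgs6 at 0.40 ± 0.09 and Strbp at 0.37 ± 0.08, the smallest, with an adjusted p of 0.00329. Vestitol mice were all above all wild type mice for Dnajc21, Ccng1, Nrep and Olfml2b, against 3.40% of all genes. Rgs6 and Strbp overlapped wild type through mouse 2. In a fit of the vestitol and wild type mice alone all 6 passed, with adjusted p from 0.00515 (Ccng1) to 0.0301 (Rgs6).

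With salviolone 5 of the 6 were higher than in wild type, against 8.32% of all genes. Nrep reached a log2 fold change of 1.10 ± 0.14 (adjusted p = 2.08e-05) and Olfml2b 1.03 ± 0.14 (adjusted p = 3.55e-05), with Dnajc21 at 0.74 ± 0.15, Ccng1 at 0.58 ± 0.13 and Rgs6 at 0.41 ± 0.09. Strbp, at 0.23 ± 0.08, did not pass (adjusted p = 0.0598). Leaving out wild type mouse 2 gave 0.32 ± 0.07 for Strbp with an adjusted p of 0.00273, and all 6 then passed for both compounds. In a fit of the salviolone and wild type mice alone the other 5 passed (adjusted p from 0.00314 for Olfml2b to 0.0313 for Ccng1), and Strbp did not (adjusted p = 0.12). Salviolone mice lay above all wild type mice for Rgs6, Nrep and Olfml2b, against 4.11% of all genes. The compounds share the wild type mice, so these 2 comparisons are not independent of each other.

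Vestitol against salviolone, both at 5 mg/kg, gave no call among the 6 genes in edgeR, where 0.684% of all genes were called in either direction. None of the 6 passed an unadjusted p of 0.05 in edgeR or the adjusted threshold in DESeq2 or limma-voom. The widest differences were Nrep, at a log2 fold change of -0.27 ± 0.14 (95% interval -0.55 to 0.01, adjusted p = 0.457), and Ccng1, at 0.20 ± 0.13 (95% interval -0.06 to 0.46, adjusted p = 0.591). Rgs6 had the smallest difference, -0.01 ± 0.09 with a 95% interval from -0.19 to 0.17. Strbp had an interval from -0.03 to 0.31, Dnajc21 from -0.15 to 0.46 and Olfml2b from -0.42 to 0.14. Differences of the size of the combination's were outside the intervals of all 6 genes, and smaller ones were within them.

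The 6 genes were lowest on average in the combination and wild type groups, which had the highest median sums of hypothalamus and basal forebrain markers. No correlation of their levels with the sum of these markers was computed. Of 13 such markers, 10 were higher in the combination than in the model control, among them Zcchc12, with a log2 fold change of 1.87 ± 0.32, and Baiap3, with 2.92 ± 0.58 (SE). Striatum markers summed to 1270 to 2005 CPM with the combination and 793.3 to 1117 in the model control, and 7 of 8 were higher. Of 8 excitatory cortex neuron markers 4 were lower, among them Neurod6 (-0.90 ± 0.17), Fezf2 (-0.77 ± 0.16) and Tbr1 (-0.60 ± 0.11), and of 8 pan-neuronal markers 4 were lower, among them Snap25 (-0.51 ± 0.09). Hippocampus markers summed to 514 to 595.1 CPM with the combination and 348.9 to 503 in the model control (2 of 8 higher), and astrocyte markers to 3600 to 4106 and 4312 to 4774 (1 of 8 lower). The astrocyte sum was lower although the median log2 fold change of its 8 markers was 0.14. At an unadjusted p under 0.05 (edgeR), 5 astrocyte markers were higher and 2 lower. Inhibitory neuron markers summed to 1256 to 1495 CPM with the combination and 1020 to 1180 in the model control, with 3 of 8 higher and 3 lower. These sums of hypothalamus, striatum, hippocampus, astrocytes and inhibitory neurons did not overlap between combination and model control, so that tissue makeup and treatment cannot be told apart in that comparison. Wild type mouse 2, the wild type mouse with the lowest hypothalamus sum, had the highest level of all 6 genes in its group. Model control mouse 1, with the highest hypothalamus sum of its group, had the lowest Rgs6, Strbp, Dnajc21 and Ccng1 of its group. Vestitol mouse 4 had the highest sum of its group (135.1 CPM) and the lowest mean centred log2 CPM of the 6 genes (0.21). Salviolone mouse 1 had both the highest sum (98 CPM) and the highest mean (0.49) of its group. Combination mouse 1 had the lowest mean of its group (-0.68), with a sum of 486.9 CPM, below the group median of 546.1.

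**Figure D3:**
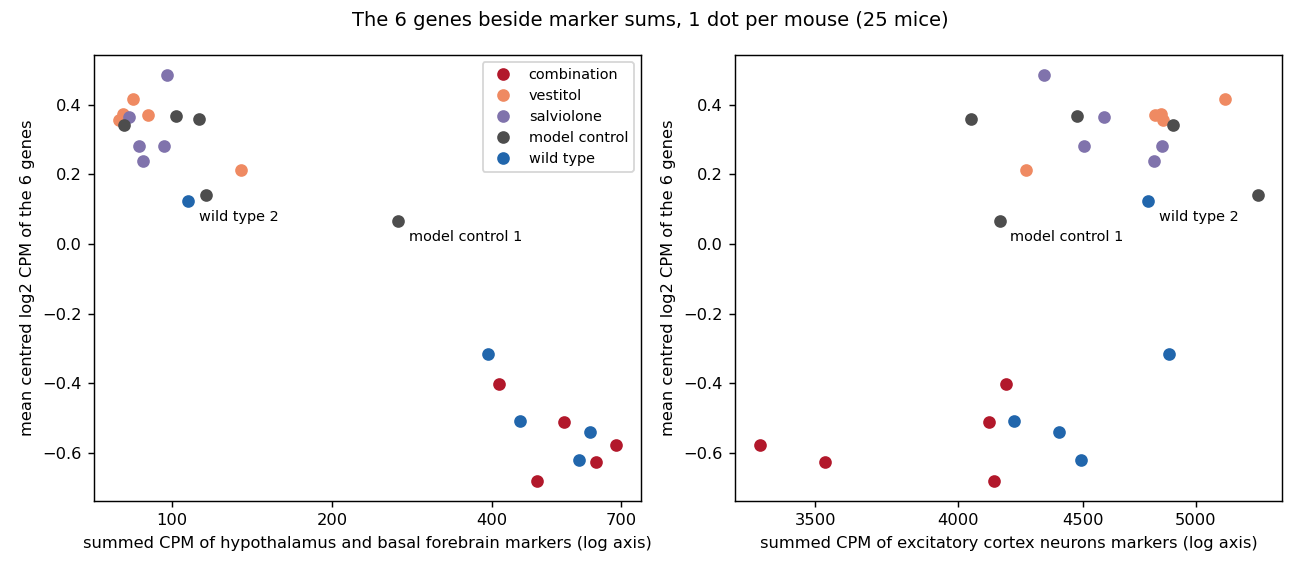
Mean centred log2 CPM of the 6 genes (y axis) in each of 25 mice against the summed CPM of hypothalamus and basal forebrain markers (left) and of excitatory cortex neuron markers (right), both on log axes. The combination and 4 wild type mice lie together at the lower right of the left panel, and the mice of the other groups with wild type mouse 2 lie at its upper left.

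With the mean log2 level of these markers as a covariate in the fit, the combination against the model control gave -0.38 ± 0.12 for Rgs6, -0.25 ± 0.09 for Strbp, -0.62 ± 0.20 for Dnajc21, -0.56 ± 0.18 for Ccng1, -0.47 ± 0.21 for Nrep and -0.35 ± 0.18 for Olfml2b (log2 ± SE). These are 41.3% (Strbp) to 60.9% (Nrep) of the estimates without it. Over all genes 0 were then called in edgeR in place of 2471, with 1279 at an unadjusted p under 0.05. The score itself was 1.49 to 3.69 in combination mice and -1.04 to 1.33 in model control mice, without overlap. This fit therefore cannot separate the score from the treatment, and it widens the SE (Nrep from 0.14 to 0.21). In the same fit none of the 6 passed for vestitol against wild type, with adjusted p from 0.0638 (Nrep and Olfml2b) to 0.456 (Strbp). For salviolone against wild type Nrep, Olfml2b and Dnajc21 passed, while Rgs6, Ccng1 and Strbp did not (adjusted p = 0.0998, 0.0966 and 0.819).

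**Figure D4:**
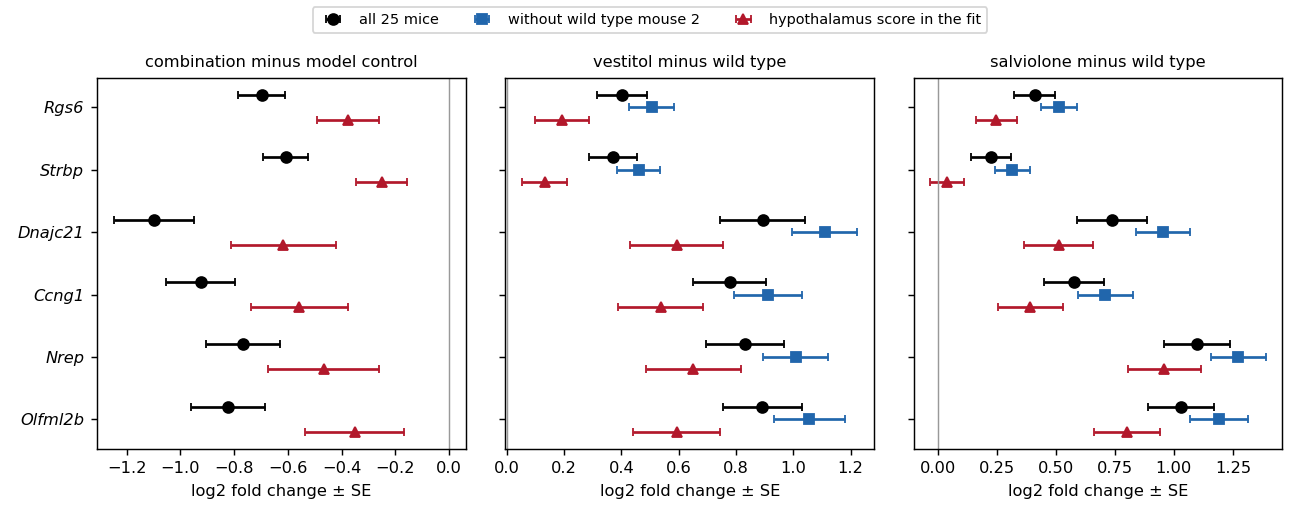
Log2 fold change with SE of the 6 genes for the combination against the model control, vestitol against wild type and salviolone against wild type, in the fit of all 25 mice (black), without wild type mouse 2 (blue, where it takes part) and with the hypothalamus marker score as covariate (red). The red estimates lie nearer to 0 than the black ones for every gene in every panel, and the blue ones lie further from 0.

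Levels of the 6 genes varied together from mouse to mouse. Pearson's r of log2 CPM was 0.81 to 0.954 over the 15 pairs (median 0.89, 25 mice), highest for Nrep with Olfml2b and lowest for Strbp with Nrep. With the mean of each group taken off, r was 0.515 (Ccng1 with Olfml2b) to 0.785 (Rgs6 with Strbp), with a median of 0.632. Wild type mouse 2, the highest of its group for all 6 genes, enters every r, and r without it was not computed. The choice of genes for the same fall sets much of the r over 25 mice, and the points share libraries, groups and tissue makeup, so no p is attached. An r over 0.5 with group means off was held by 4.23% (Nrep) to 5.84% (Strbp) of the other genes. Genes most like Rgs6 over the 25 mice were Ntn5 (r = 0.966), Rassf3 (0.964) and Adcy1 (0.957). For Strbp they were Kcnh7 (0.964), Ptk2 (0.951) and Serpinb8 (0.944), and for Dnajc21 Stac2 (0.96), Mkx (0.953) and Nudt4 (0.953). Ccng1 was most like Wee1 (0.945), Trhde (0.924) and Cdh12 (0.919). For Nrep they were Cd34 (0.957), Olfml2b (0.954) and Dkk3 (0.947), and for Olfml2b Dkk3 (0.962), Nfix (0.957) and Nrep (0.954). An r over 0.8 with Ccng1 was held by 1.69% of the other 16514 genes, and with Dnajc21 by 2.71%. With group means off, the nearest genes were Kcnab3 for Rgs6 (0.889), Kcnh7 for Strbp (0.91), Hivep1 for Dnajc21 (0.85), Eps15 for Ccng1 (0.863), Tmem196 for Nrep (0.837) and Dkk3 for Olfml2b (0.846). Spearman's rank correlation was lower for each of these pairs, at 0.808, 0.895, 0.735, 0.718, 0.733 and 0.763 in the same order.

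No annotated neighbour overlapped any of the 6 genes in mm39. Of the 12 nearest tested neighbours, 4 were lower with the combination than in the model control (edgeR), against 7.13% of all genes, and with the hypothalamus score as covariate no gene of 16515 was called in edgeR (1279 at an unadjusted p under 0.05). Nos1ap, 54671 bases from Olfml2b, had a log2 fold change of -0.61 (adjusted p = 0.000728) and Atf6, 21885 bases from it, -0.41 (adjusted p = 0.0021). Rad1, 15502 bases from Dnajc21, had -0.46 (adjusted p = 0.0026), and Gpr21, 49265 bases from Strbp, -0.72 (adjusted p = 0.0399). The nearest neighbours of Dnajc21 and Strbp, Brix1 and Rabgap1, had -0.06 (adjusted p = 0.808) and 0.01 (adjusted p = 0.931). Neighbours of Ccng1, Nrep and Rgs6 did not pass the test.

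Partners and relatives of the 6 genes were counted in 10 lists of 198 genes for the combination against the model control (edgeR, adjusted p under 0.05 over all genes), where 7.13% of all genes were lower and 7.83% higher. Of 17 tested genes of the R7 RGS complex and GIRK signalling, 5 fell and 4 rose. Those that fell were the channel subunits Kcnj9 (log2 fold change -0.53 ± 0.08, SE), Kcnj6 (-0.54 ± 0.11) and Kcnj3 (-0.64 ± 0.17), the inhibitory G protein Gnai1 (-0.26 ± 0.05) and Rgs7bp (-0.25 ± 0.08), which anchors R7 proteins to the membrane. Adcy5 (0.63 ± 0.11) and Rgs9 (0.57 ± 0.16), both abundant in striatum, rose, as did Gnai2 (0.30 ± 0.06) and Kcnj5 (1.49 ± 0.41). Without combination mouse 4, 2 of the list rose. Other R7 genes gave 29.8 ± 1.98 FPKM with the combination and 32.7 ± 2.01 in the model control for Rgs7, and 3.33 ± 0.21 and 3.92 ± 0.54 FPKM for Rgs11, neither passing the test (adjusted p = 0.165 and 0.0902). Rgs9 had 125 ± 27.4 and 83.2 ± 10.5 FPKM. The shared partner Gnb5 had 137 ± 20.1 and 123 ± 16.5 FPKM (adjusted p = 0.505). Among 13 other RGS genes 4 rose (Rgs14, Rgs8, Rgs10 and Rgs12, at 0.80 ± 0.16, 0.44 ± 0.10, 0.41 ± 0.11 and 0.40 ± 0.12) and 2 fell (Rgs5 at -0.30 ± 0.09 and Rgs4 at -0.40 ± 0.13). The count of 2 became 0 or 1 on leaving out any of the 10 mice except model control mouse 1.

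Of 17 relatives of Strbp that bind RNA duplexes, 2 rose, among them Prkra (0.24 ± 0.08), and 2 fell (Cdkn2aip at -0.28 ± 0.07 and Zfr at -0.14 ± 0.04). The 2 that rose became 0 without combination mouse 1 or 2, and 1 without combination mouse 3, 4 or 5 or model control mouse 3, 4 or 5. The 2 that fell became 1 without combination mouse 1 or model control mouse 2 or 4, and 4 in DESeq2 and in limma-voom. None of 20 genes of large subunit maturation, the pathway of Dnajc21, was called in edgeR, DESeq2 or limma-voom, with 2 lower at an unadjusted p under 0.05, Gnl2 (-0.14 ± 0.07) and Spata5l1 (-0.26 ± 0.12). Of 24 other DnaJ C genes, Dnajc10 alone rose (0.26 ± 0.08), and it lost its call without combination mouse 1 or 2 or model control mouse 2 or 5. The medians of these lists were -0.03 for duplex binding, -0.02 for subunit maturation and 0.03 for DnaJ C, against 0.00 over all genes.

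Of 30 other p53 targets 5 fell and none rose in edgeR, where 1 was higher at an unadjusted p under 0.05 and none in DESeq2 or limma-voom. The 5 were Psrc1 (-0.67 ± 0.16), Plk3 (-0.41 ± 0.11), the DNA damage gene Gadd45a (-0.80 ± 0.22), Tigar, a regulator of sugar breakdown (-0.21 ± 0.06), and Zmat3 (-0.17 ± 0.05). Without combination mouse 1, 1 of the list rose, and without the 3 deepest combination libraries none of the 5 was called. The paralog of Ccng1, Ccng2, had 8.80 ± 0.27 FPKM with the combination and 8.91 ± 0.60 in the model control (adjusted p = 0.725), while Ccng1 had 7.99 ± 0.94 and 14.96 ± 2.24. Of 12 partners of cyclin G, the phosphatase subunit Ppp2r5d rose (0.20 ± 0.05) and Ppp2r5a fell (-0.28 ± 0.06). Against wild type, 5 of the 30 p53 targets were higher and 1 lower with vestitol (6.95% and 8.49% of all genes), and 5 higher and 3 lower with salviolone (8.32% and 9.45% of all genes). Psrc1 (0.91 ± 0.17 with vestitol and 0.89 ± 0.17 with salviolone) and Gadd45a (0.65 ± 0.22 and 1.15 ± 0.22) were among those higher with both.

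Of 27 genes of the TGF-beta pathway, which Nrep acts on, 1 rose and 2 fell, Ltbp1 (-0.51 ± 0.12) and Itgav (-0.30 ± 0.10). The count of 2 became 1 without combination mouse 2 or 5 or model control mouse 1, 2 or 5. Of 12 other olfactomedin domain genes Olfm2 fell (-0.46 ± 0.12) and none rose in edgeR or DESeq2, with 1 higher at an unadjusted p under 0.05 and in limma-voom, and also in edgeR without model control mouse 1. Olfml2a, the closest paralog of Olfml2b, had 1.57 ± 0.52 FPKM with the combination and 1.54 ± 0.38 in the model control (adjusted p = 0.987). Among 22 chondroitin and heparan sulfate proteoglycans, the kind of molecule that Olfml2b binds, 5 rose and none fell in any of the 3 tools or at an unadjusted p under 0.05. These were Gpc3 (1.37 ± 0.23), Sdc3 (0.44 ± 0.07), Sdc2 (0.29 ± 0.09), Gpc5 (0.23 ± 0.07) and Bcan (0.18 ± 0.06). The count of 5 became 3 without combination mouse 1, 3 or 5 and 2 without combination mouse 4 or model control mouse 2 or 4. Without the 3 deepest combination libraries, 2 of the proteoglycans rose, and 1 gene of the R7 RGS and GIRK list fell and 2 rose. With the hypothalamus score as covariate no gene of the 10 lists was called in edgeR.

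In the model control against wild type, where 6.21% of all genes were lower and 5.37% higher, 3 of the 30 p53 targets were higher, Gadd45a (0.91 ± 0.22), Psrc1 (0.67 ± 0.16) and Tigar (0.24 ± 0.06), and none was lower in edgeR, with 1 lower at an unadjusted p under 0.05 and in DESeq2 and limma-voom. Rgs7bp (0.30 ± 0.08) and Kcnj9 (0.28 ± 0.08) were the 2 of 17 genes of the R7 RGS and GIRK list that were higher. Of the proteoglycans 3 were lower, Gpc3 (-1.17 ± 0.23), Gpc4 (-1.21 ± 0.26) and Sdc3 (-0.42 ± 0.07). Olfm2 was higher (0.47 ± 0.12). These model control mice are the ones used against the combination, so opposite signs in the 2 comparisons are not independent.

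**Figure D5:**
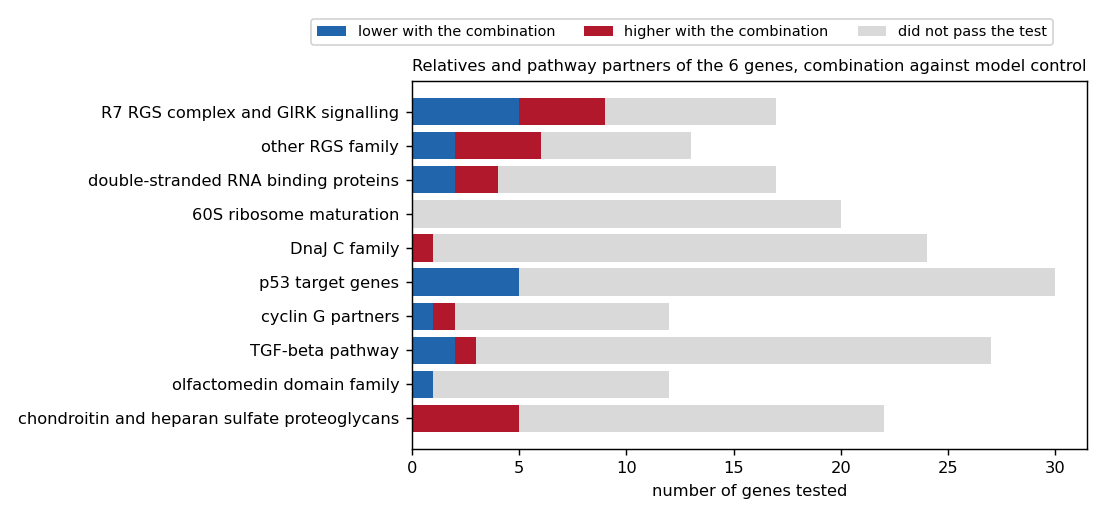
Number of tested genes (x axis) in each of 10 lists of relatives and partners that were lower (blue), higher (red) or did not pass (grey) with the combination against the model control. The R7 RGS and GIRK list holds 5 lower and 4 higher of 17, the p53 target list 5 lower of 30 and the proteoglycan list 5 higher of 22.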

How the data were processed

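RNA of the brain cortex of 25 mice was sequenced. Per the submitters' processing notes, the authors trimmed reads with Trim Galore and aligned them with STAR to mm39. What versions, counter, strand mode and gene models they used is not given in the sources used here, so reads of overlapping antisense genes could not be told apart. Per the labels' protocols, a TruSeq RNA kit served for the RNA and a SMARTER mRNA-Seq kit for the libraries. The authors deposited raw counts per gene and FPKM, and each library is a separate mouse per the labels. Gene coordinates are those the authors deposited beside the counts. Multiples of 4 made up 44.3% of deposited counts in the range 4 to 39 (25% by chance), and how the counting gave this is not stated. FPKM were checked against the counts, and the length they imply varied by a median of 0.177%.

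Genes were kept by filterByExpr (minimum count 10; 16515 genes). All 25 mice entered 1 fit with TMM factors (0.98 to 1.04) in edgeR 4.0.16 (R 4.3.3), tested with its quasi-likelihood F test (robust, two-sided) and Benjamini-Hochberg adjustment within each comparison (calls under 0.05). SE is the size of the log2 fold change over the square root of F, and intervals are 95%. P-values set a difference between groups against the spread between mice within groups, estimated over all 25 mice. A count of 0 allows up to 3 counts, or 0.0273 to 0.0505 CPM, for counting error only. The fit was tested on simulated counts of independent mice with the same dispersion (spread between mice) for every gene. That dispersion was below the common dispersion of the data (0.0483), so the simulation was an easier case than these data.

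The genes and lists were chosen with earlier results of these data known. Named were the 6 genes, the 3 genes most like each by Pearson's r (mean log2 CPM of at least 1, no predicted or clone names), with the nearest with group means off, and of each list up to 4 called genes per direction with the smallest p (2 where none was called), with relatives of the same family. Others were chosen after their values were seen (markers, neighbours, the list genes named against wild type, and genes beyond 4 of a list). Promoter windows are RefSeq's (GRCm38.p6) and were searched on both strands, and deposited coordinates are mm39. Sequence of Nrep was not used here, and a few genes named by this rule are not reported here. Alternatives were another scaling (RLE size factors), no filter on low counts, a filter at 1 CPM in 5 samples, counts divided by 4, DESeq2 1.42.0 (counts as deposited), limma-voom with sample weights (limma 3.58.1), and limma on log2(FPKM + 0.1) and log2(FPKM + 1) of the FPKM the authors deposited. Others were only the groups compared, a replicate block, the hypothalamus marker score as covariate, no deepest 3 combination libraries, and each mouse left out. Leaving out wild type mouse 2 and model control mouse 1 together was chosen after seeing the data.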

Additional observations from a re-analysis of the deposited data

Results flagged for a closer look

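Of 120 sets of 5 mice examined (the 6 genes and 18 marker sums, group by group), 12 held a mouse far from the other 4 of its group, and chance flags about 1 in 20. Combination mouse 3 had 71.4 CPM of Rgs6, above the 52.7 to 56.9 of the other combination mice. Vestitol mouse 4 had 11.0 CPM of Olfml2b, below the 13.9 to 15.02 of the other vestitol mice. The same mouse had the highest sums of its group for markers of hypothalamus and basal forebrain (135.1 CPM) and of striatum (1423 CPM), and whether these bear on its Olfml2b was not tested. Model control mouse 1 had a hypothalamus and basal forebrain sum of 266.6 CPM, the highest of its group, and a pan-neuronal sum of 4566 CPM, the lowest.

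The other 6 were marker sums. Choroid plexus markers reached 71.67 CPM in combination mouse 1 and 223 CPM in salviolone mouse 1, above at most 25.87 and 29.2 CPM in the other mice of each group. Thalamus markers reached 314.6 CPM in vestitol mouse 2, blood cell markers 147.8 CPM in model control mouse 4 and astrocyte markers 4774 CPM in model control mouse 3, each the highest of its group. Markers of oligodendrocyte precursors were lowest in combination mouse 2 (337.7 CPM).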

How the results depend on the processing

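For the combination against the model control, the 6 genes kept their direction under every alternative run. They were chosen on this difference in these same mice, so the kept direction is a description and lends no support. The marker score as covariate moved Rgs6 to -0.38, Strbp to -0.25, Dnajc21 to -0.62, Ccng1 to -0.56, Nrep to -0.47 and Olfml2b to -0.35, and log2(FPKM + 1) moved Olfml2b to -0.59. For the combination against wild type, estimates below 0 turned to 0.075 for Olfml2b, 0.066 for Ccng1 and 0.057 for Nrep with the covariate. For vestitol against wild type the covariate gave 0.19 for Rgs6, 0.13 for Strbp, 0.59 for Dnajc21, 0.54 for Ccng1, 0.65 for Nrep and 0.59 for Olfml2b, none called, and for salviolone against wild type 0.25 for Rgs6 and 0.39 for Ccng1, not called. Strbp for salviolone against wild type, not called in edgeR, was called by DESeq2 (0.23), by limma-voom (0.26), and without wild type mouse 2 and model control mouse 1 (0.32). The cause of these changes was not tested.

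Genes called with the covariate were 0 in place of 2471 for the combination against the model control, 99 in place of 1913 for the model control against wild type, 118 in place of 2549 for vestitol against wild type and 803 in place of 2934 for salviolone against wild type. With only the groups compared, which leaves fewer mice, they were 349, 1527 and 1873 against wild type in the same order, and 41 for vestitol against salviolone in place of 113, where DESeq2 called 275. Without the 3 deepest combination libraries 914 were called for the combination against the model control, and 3030 for the model control against wild type without wild type mouse 2 and model control mouse 1.

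With 1 mouse left out, calls were 954 (wild type mouse 4) to 2928 (wild type mouse 2) for the model control against wild type, 1632 (wild type mouse 4) to 3341 (wild type mouse 2) for vestitol against wild type and 14 (salviolone mouse 3) to 204 (salviolone mouse 1) for vestitol against salviolone. Strbp for salviolone against wild type was 0.18 to 0.32. Replicate numbers were not treated as pairs, and 8 of 50 same-numbered pairs had an r over 0.1 (range -0.14 to 0.156). Differently numbered mice were not compared, so these values cannot show that the numbers carry no pairing. With a replicate block, Strbp for salviolone against wild type was 0.23 with an adjusted p of 0.0291, and 2455 genes were called for the combination against the model control. Depth did not limit the 6 genes, which had at least 390 counts in every library.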
